A study of Caenorhabditis elegans with 6 samples.

Results

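The dosage compensation complex of Caenorhabditis elegans was examined as 10 genes, sdc-1, sdc-2, sdc-3, dpy-30, dpy-27, mix-1, dpy-26, dpy-28, capg-1 and dpy-21, whose messenger RNA was measured on Affymetrix arrays. The members were taken by gene symbol, with all probe sets of each gene, and comprised 16 of 22548 probe sets and 10 of 17430 genes. Under their own symbols 9 of the genes were found, and capg-1 was found under its older sequence name, F29D11.2. RNA came from whole mixed-stage embryos on 6 arrays. Of these, 3 arrays carried embryos of the mir-35-41(nDf50) mutant, strain VT2935 lacking nEx1187, in which a cluster of embryonic microRNAs is deleted. The other 3 carried wild type embryos of strain N2. Cultures of both groups were fed added egg yolk, had grown at 20 °C, and spent the last 24 hours before hypochlorite collection at 25 °C. Each array therefore averages embryos of many stages, and no label says that replicates came from separate cultures, so that the tests measure only the spread between these samples.

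In Caenorhabditis elegans, hermaphrodites carry a pair of X chromosomes and males a lone X chromosome. The dosage compensation complex binds both X chromosomes of the hermaphrodite embryo and lowers transcription from them, and loss of the complex raises X-linked expression and is lethal to hermaphrodites. The same switch gene, xol-1, sets both sex and dosage compensation by repressing sdc-2 in males. The complex combines recruitment factors, a condensin dedicated to the X chromosome and a histone demethylase. The study that these arrays belong to concerned embryos lacking the mir-35-41 cluster, whose microRNA family earlier work ties to sex determination, and the question here was whether transcripts of the complex differ between the mutant and wild type.

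No member of the complex passed the test. Of the 16 probe sets 0 had a limma adjusted p under 0.05, where 3.48% of all probe sets passed. At an unadjusted p under 0.05 there were also 0, where 19.4% of all probe sets passed. With so few probe sets, 2 each for 6 of the genes, the adjusted count of 0 does not set the members apart from all probe sets. Differences, given throughout as mutant minus wild type on the log2 scale, ran from -0.26 for dpy-27 to 0.33 for sdc-2. By the brightest probe set of each gene, 5 genes had values above 0 and 5 below 0, with a median of 0.03, against a median of -0.05 over all genes. The median size of the difference was 0.10 for the members and 0.14 for all genes. For 14 probe sets the 95% interval of the difference lay within 2-fold in either direction, and the exceptions were the pair of sdc-2. Outside sdc-2 the intervals, which are not adjusted for the number of probe sets, reached at most 1.57-fold lower and 1.60-fold higher in the mutant. A p-value above the threshold does not show that the levels were equal, and these bounds give the sizes of change that the arrays leave room for. With fewer or more embryos of a stage or cell type in a bulk sample, a change in cell numbers and a change in RNA per cell cannot be told apart.

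**Figure D1:**
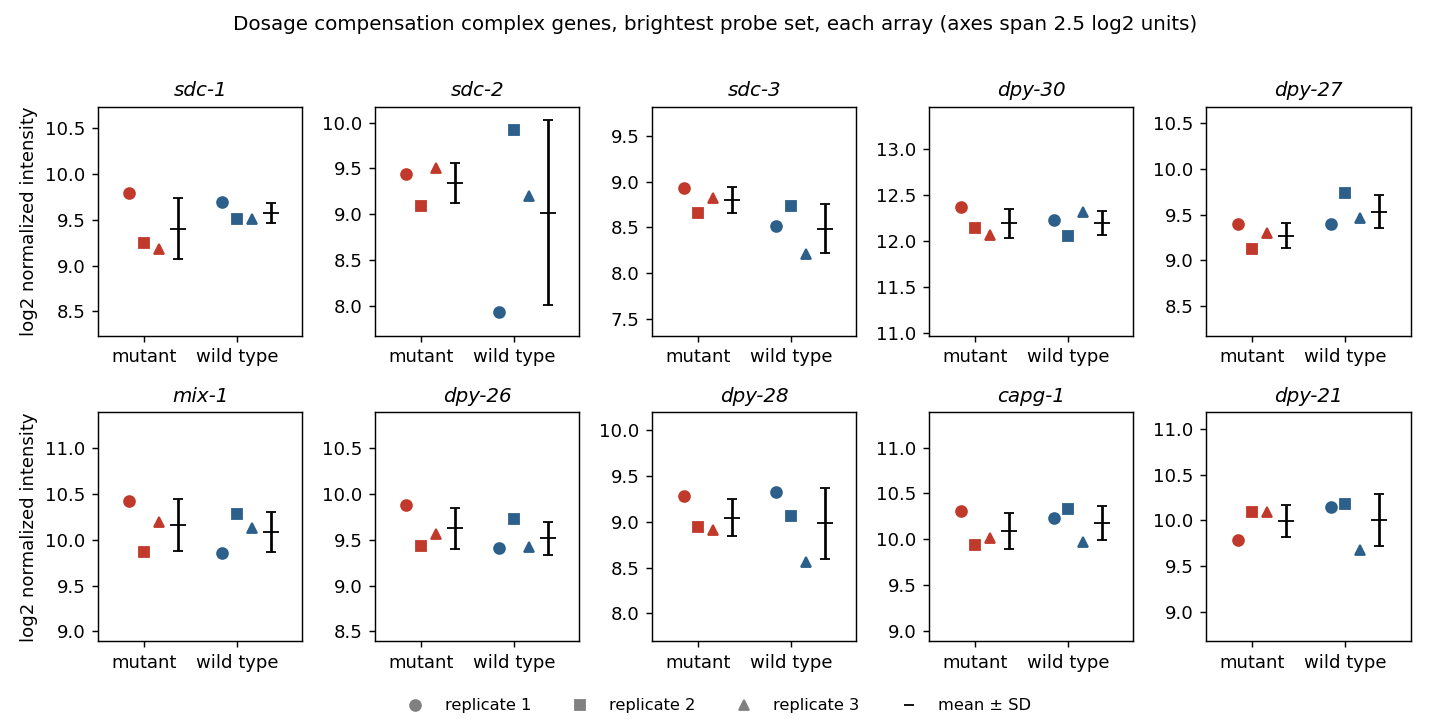
Log2 normalized intensity of the brightest probe set of each of the 10 genes, with mutant arrays (red) left of wild type arrays (blue), 1 symbol per replicate and the mean ± SD of each group in black. The groups overlap for all 10 genes, and sdc-2 has the widest spread, with wild type replicate 1 at 7.93.

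All member probe sets were brighter than the yeast control probe sets on every array. The lowest member value on any array was 6.20 on the log2 scale, and the 5 yeast control probe sets, to which worm RNA offers no match, reached at most 5.55. By the suffix of their identifiers, 8 of the member probe sets may be shared with other transcripts, and 0 list a further gene in the deposited annotation. Mutant replicate 1 stood between the groups, with array correlations of 0.989 and 0.991 with the other mutant arrays and 0.986 to 0.988 with the wild type arrays. Mutant replicates 2 and 3 correlated at 0.998 with each other and at 0.978 to 0.983 with the wild type arrays.

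The recruitment factors come first, since they bring the complex to the X chromosome. sdc-2 (C35C5.1, on the X chromosome) encodes the large protein that is made in hermaphrodites and starts assembly of the complex. Its brighter probe set had 9.44, 9.09 and 9.50 on the mutant arrays, in the order of their replicate numbers, against 7.93, 9.92 and 9.20 in wild type in the same order. Wild type replicate 1 was the lowest of the 6 arrays and wild type replicate 2 the highest, so that the mutant arrays lay inside the wild type range. The means were 9.34 ± 0.22 in the mutant and 9.02 ± 1.01 in wild type (SD, n = 3 each), a difference of 0.33 (95% interval -0.77 to 1.42, limma adjusted p = 0.756).

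The second probe set of sdc-2 gave the same picture. It had 8.13, 7.54 and 8.13 on the mutant arrays and 6.44, 8.61 and 7.85 on the wild type arrays. Its difference was 0.30 (95% interval -0.92 to 1.52, limma adjusted p = 0.802), and again wild type replicate 1 was lowest and wild type replicate 2 highest. On the brighter probe set the mutant arrays spanned 0.41 and the wild type arrays 1.99 on the log2 scale, or 3.97-fold for wild type. The pooled SD within groups, 0.73, was larger than that of 99.7% of all probe sets, whose median was 0.15. The direction of the difference rested on 1 array: without wild type replicate 1 the values were -0.22 and -0.30 for the brighter and the dimmer probe set, and without wild type replicate 2 they were 0.78 and 0.79.

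sdc-1 (F52E10.1), the other X-linked member, encodes a zinc finger protein that acts with SDC-2 on both sex and dosage compensation. Its brighter probe set had 9.79, 9.24 and 9.18 on the mutant arrays, against 9.70, 9.51 and 9.51 on the wild type arrays. Mutant replicates 2 and 3 were below all wild type arrays, while mutant replicate 1 was above them, so the groups overlapped. The difference was -0.17 (SE 0.17, limma adjusted p = 0.651), and the dimmer probe set repeated the order, with 8.68, 7.99 and 7.94 in the mutant and 8.52, 8.31 and 8.27 in wild type. Its difference was -0.16 (SE 0.21, limma adjusted p = 0.724). Without mutant replicate 1 the differences of these probe sets were -0.36 and -0.40, with limma adjusted p-values of 0.0779 and 0.0729. With mutant replicate 2 left out they were -0.09 and -0.06, and without mutant replicate 3 they were -0.06 and -0.03, with limma adjusted p-values of 0.908 to 0.974, so that the size of the difference depended on each mutant array.

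sdc-3 (C25D7.3, chromosome V), a zinc finger protein that anchors the complex on the X chromosome together with SDC-2, was measured by 1 probe set. It had 8.93, 8.66 and 8.82 on the mutant arrays and 8.52, 8.74 and 8.20 on the wild type arrays. Only mutant replicate 2 lay below wild type replicate 2, and the other mutant arrays were above all of wild type. The means were 8.80 ± 0.14 in the mutant and 8.49 ± 0.27 in wild type (SD, n = 3 each), and the difference of 0.31 (95% interval -0.05 to 0.67) had a limma adjusted p of 0.320.

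dpy-30 (ZK863.6, chromosome V) encodes a small protein needed for loading of the complex, which is also a subunit of the COMPASS histone methyltransferases. It had 12.37, 12.14 and 12.06 on the mutant arrays and 12.23, 12.06 and 12.31 on the wild type arrays. Arrays of the groups interleaved, and the difference was -0.01 (95% interval -0.29 to 0.27, limma adjusted p = 0.976).

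The condensin of the complex differs from the mitotic one by DPY-27, an SMC-type ATPase that takes the place of SMC-4 and serves dosage compensation alone. dpy-27 (R13G10.1, chromosome III) had 9.40, 9.12 and 9.30 on the mutant arrays and 9.40, 9.74 and 9.46 on the wild type arrays, by its brighter probe set. Mutant replicate 1 and wild type replicate 1 had nearly the same level, and the other mutant arrays were below all of wild type. The means were 9.27 ± 0.14 in the mutant and 9.53 ± 0.18 in wild type (SD, n = 3 each), with a difference of -0.26 (95% interval -0.56 to 0.03, limma adjusted p = 0.315).

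The dimmer probe set of dpy-27 had 6.37, 6.33 and 6.20 in the mutant, against 6.51, 6.50 and 6.45 in wild type. Here all mutant arrays were below all wild type arrays, the 1 member probe set of 16 whose groups did not overlap, a pattern that 24.3% of all probe sets showed in either direction and 13.3% in this one. Its difference of -0.19 (95% interval -0.39 to 0.01) had a limma adjusted p of 0.290, and the probe set is of a kind that may share transcripts. It is also the dimmest member probe set, and its lowest value was 0.65 above the highest yeast control value. All its values were below those of the adult yolk gene vit-3, at 6.73 in both groups, so this margin alone does not show that the transcript was present.

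mix-1 (M106.1, chromosome II) encodes the SMC-type partner of DPY-27, and the same protein serves in all condensins of the worm. Its brighter probe set had 10.43, 9.86 and 10.20 on the mutant arrays and 9.85, 10.28 and 10.13 on the wild type arrays. Levels interleaved, with mutant replicate 1 highest and wild type replicate 1 lowest, and the difference was 0.08 (95% interval -0.34 to 0.49, limma adjusted p = 0.856). The other probe set gave -0.04 (SE 0.20, limma adjusted p = 0.935).

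The 3 remaining condensin subunits are shared with the mitotic condensin I. dpy-26 (C25G4.5, chromosome IV), the kleisin that closes the ring, had 9.88, 9.43 and 9.57 on the mutant arrays and 9.41, 9.73 and 9.42 on the wild type arrays, a difference of 0.11 (95% interval -0.24 to 0.46, limma adjusted p = 0.747). The groups overlapped, mutant replicate 1 being the highest and wild type replicate 1 the lowest array. dpy-28 (Y39A1B.3, chromosome III), a HEAT-repeat subunit, had 9.28, 8.94 and 8.91 on the mutant arrays and 9.33, 9.06 and 8.56 on the wild type arrays by its brighter probe set. All mutant arrays lay inside the wild type range, and the differences of its probe sets were 0.06 and -0.06 (limma adjusted p = 0.904 and 0.794).

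capg-1 (F29D11.2), the second HEAT-repeat subunit, had 10.31, 9.93 and 10.02 on the mutant arrays and 10.23, 10.34 and 9.97 on the wild type arrays by its brighter probe set. Mutant replicate 2 was the lowest array and wild type replicate 2 the highest. Its probe sets gave differences of -0.09 each (95% intervals -0.43 to 0.25 and -0.45 to 0.28, limma adjusted p = 0.787 and 0.806).

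dpy-21 (Y59A8B.1, chromosome V) encodes the demethylase that raises monomethylated histone H4 lysine on the X chromosome of somatic cells. It had 9.79, 10.09 and 10.09 on the mutant arrays and 10.15, 10.18 and 9.68 on the wild type arrays. Mutant replicate 1 and wild type replicate 3 were the low arrays of their groups, and the difference was -0.01 (95% interval -0.40 to 0.38, limma adjusted p = 0.978).

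**Figure D2:**
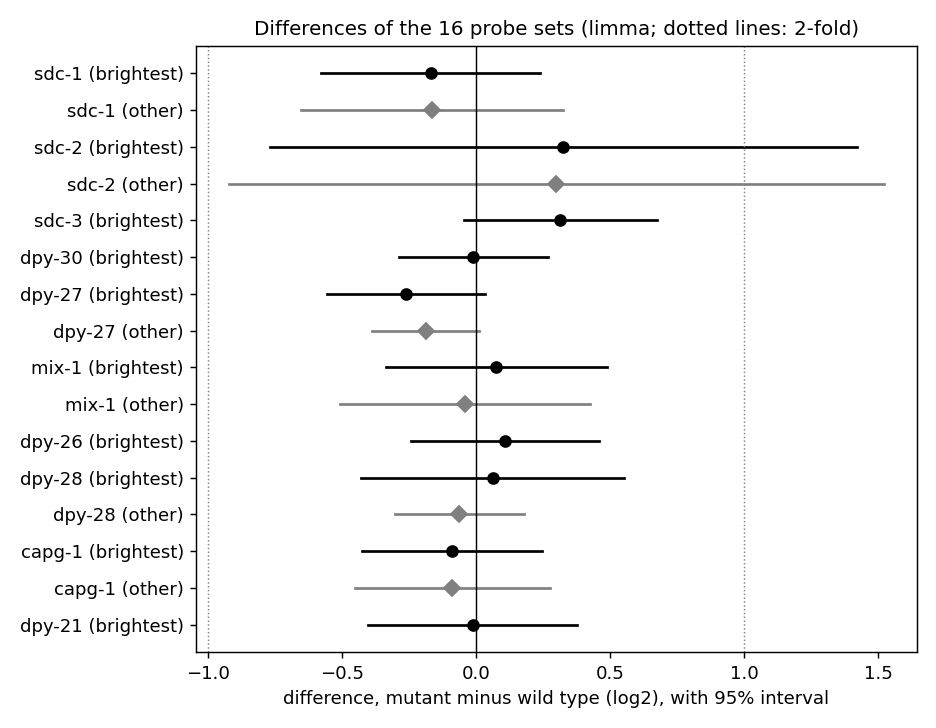
Difference of mutant minus wild type on the log2 scale for the 16 probe sets (points) with 95% intervals of the limma fit (lines), the brightest probe set of each gene in black and the other in grey. Every interval includes 0, and those of sdc-2, from -0.92 to 1.52 at their widest, cross the dotted line of a 2-fold rise.

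The members did not share a split by genotype across arrays. After centring each gene on its own mean level, the median of the 10 genes was 0.26, -0.11 and -0.05 in the mutant, by replicate number, against 0.01, 0.16 and -0.08 in wild type. Mutant replicate 1 was the highest of the 6 arrays. The 5 condensin genes alone had medians of 0.27, -0.20 and -0.10 in the mutant and -0.00, 0.16 and -0.15 in wild type, with the same array highest.

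Medians of stage marker lists differed between most mutant arrays and wild type, with mutant replicate 1 near wild type. The median of 15 maternal transcripts, loaded into the oocyte, was 0.21, -0.28 and -0.28 in the mutant, against 0.27, 0.13 and -0.03 in wild type. Of these transcripts 13 had differences below 0 and 2 above 0, skn-1 (0.44) and spn-4 (0.03). The median of 10 early zygotic transcripts was 0.10, -0.31 and -0.36 in the mutant and 0.17, 0.06 and 0.11 in wild type, and all 10 had differences below 0, with 0 called by limma, where 0.631% of all genes were called lower. The median of 13 muscle and cuticle genes of late embryos was -0.12, 0.43 and 0.45 in the mutant and -0.01, -0.23 and -0.48 in wild type, and 2 of them, the collagen genes rol-6 and dpy-5, rose by the limma test, where 3.02% of all genes did. In this list 11 genes had differences above 0 and 2 below 0, the collagen genes dpy-7 (-0.24) and dpy-10 (-0.21). Summed intensities were 17938 to 24789 in the mutant and 20720 to 24762 in wild type for the maternal list, 1405 to 2034 and 2175 to 2471 for the early zygotic list, and 51266 to 61396 and 51064 to 54402 for the late list. A large part of each late sum came from sqt-3, the brightest probe set on every array (23453 to 24841), which differed by 0.04. Of the maternal, early zygotic and late markers all but 2 early zygotic genes were brighter than the yeast controls. Some yolk genes were too, such as vit-3 at 6.73 in both groups, so this criterion alone does not show that a stage was present. The part of embryo stage in the members' values was not tested. Sums of 5 yolk genes (268 to 286 in the mutant, 269 to 284 in wild type) and of 10 sperm and male genes (369 to 395 and 374 to 395) were low and overlapped between groups, with 2 and 6 of these genes no brighter than the yeast controls in either group.

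**Figure D3:**
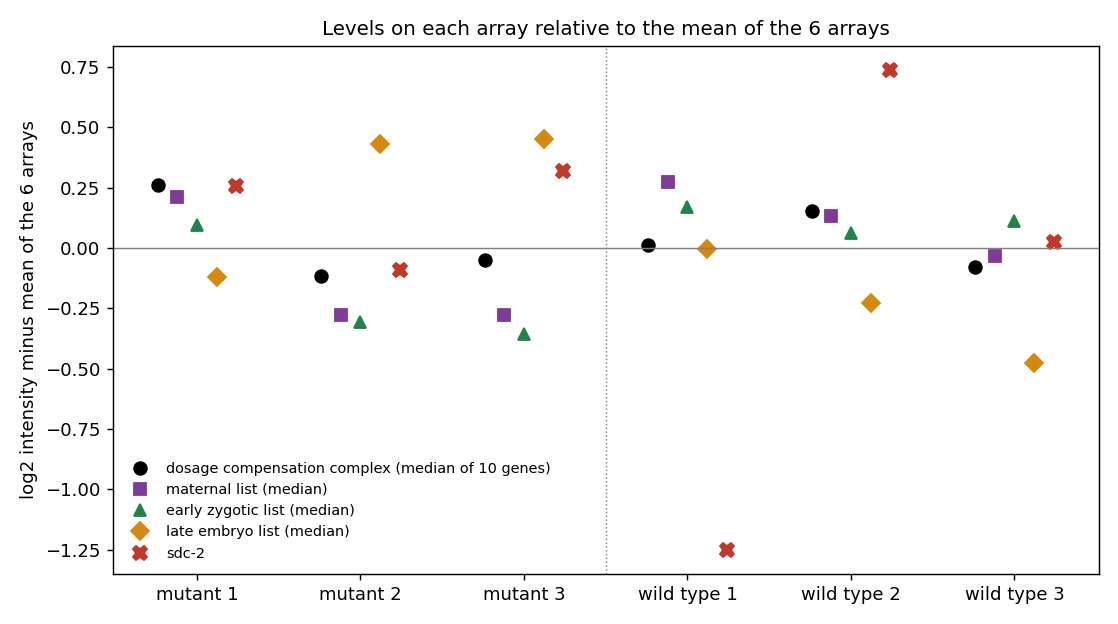
Log2 intensity on each array minus the mean of the 6 arrays, for sdc-2 (red crosses), the median of the 10 complex genes (black) and the medians of 3 stage marker lists, with mutant arrays on the left. Mutant replicates 2 and 3 have low maternal and early zygotic and high late embryo medians, mutant replicate 1 lies with wild type, and sdc-2 is lowest on wild type replicate 1.

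The genes around the complex were read from 7 lists, and 0 of their 43 measured genes passed the limma test over all probe sets, against 3.65% of all genes by their brightest probe set. At an unadjusted p under 0.05 there were 3 of them, fox-1, fem-1 and set-1, where 19.4% of all probe sets passed. The sex signal and its switch, which decide whether sdc-2 is made, had 6 measured genes with a median difference of -0.22, 5 of them below 0. fox-1, an X-linked signal gene encoding an RNA-binding protein, had 9.55, 9.61 and 9.68 in the mutant and 10.15, 9.98 and 9.71 in wild type, a difference of -0.33 (SE 0.13, limma adjusted p = 0.212). The mutant arrays were all below the wild type arrays, by a narrow gap at wild type replicate 3, as for 13.3% of all probe sets. The other probe set of fox-1 gave -0.29. sea-1, an autosomal signal gene encoding a T-box protein, differed by -0.43 (SE 0.25, limma adjusted p = 0.410) and followed mutant replicate 1, with 10.19, 9.25 and 9.32 in the mutant and 10.10, 9.88 and 10.08 in wild type. It passed without mutant replicate 1 (-0.73, limma adjusted p = 0.0124) and with array weights (-0.60, limma adjusted p = 0.0353), settings in which 2404 and 4195 of all 22548 probe sets passed.

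xol-1 and her-1 stand directly above and below sdc-2 in the pathway, and were named for that and not by their size of change. By the brighter of its 2 probe sets, the only one read, xol-1 had 7.12, 6.40 and 6.42 on the mutant arrays and 7.08, 6.80 and 6.55 on the wild type arrays (difference -0.17, limma adjusted p = 0.748). The means of xol-1, 6.65 in the mutant and 6.81 in wild type, were close to the 6.73 of the adult yolk gene vit-3 in both groups. her-1, the male-determining gene that SDC proteins repress, had 8.22, 7.97 and 7.93 in the mutant and 8.42, 7.61 and 7.90 in wild type (difference 0.06, limma adjusted p = 0.902). Both were highest on the replicates numbered 1, mutant and wild type, and their groups overlapped. Of the 7 genes downstream in sex determination, with a median of 0.11, the largest differences were 0.33 for fem-1 and 0.33 for fem-2, male-promoting genes, with limma adjusted p-values of 0.173 and 0.294, and their other probe sets gave 0.33 and 0.20. By the brightest probe sets of fem-1 and fem-2 all mutant arrays lay above all wild type arrays. Groups did not overlap for 24.3% of all probe sets in either direction, of which 13.3% of all had the mutant lower. The share with the mutant higher, as here, is therefore well below 24.3%.

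Among 4 other condensin subunits the median difference was -0.08. smc-4, the counterpart of dpy-27 in mitotic condensins, had 10.67, 10.26 and 10.53 on the mutant arrays and 9.94, 10.52 and 10.33 on the wild type arrays, with a difference of 0.22 (SE 0.17, limma adjusted p = 0.549). The second largest value was -0.11 for kle-2, a condensin II kleisin. Of the 5 measured COMPASS partners of dpy-30 (median -0.15), wdr-5.1 and ash-2 had the largest values, -0.20 and -0.18, with limma adjusted p-values of 0.328 and 0.413.

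The 7 genes of histone H4 lysine methylation and X chromatin had a median of -0.17. set-1, which encodes the methyltransferase that places the first methyl group on the histone H4 lysine where DPY-21 acts, had 10.52, 10.19 and 10.30 in the mutant and 10.77, 10.82 and 11.10 in wild type. All mutant arrays lay below all wild type arrays, as for 13.3% of all probe sets. The difference of set-1, -0.56 (SE 0.13, 95% interval -0.87 to -0.25), missed the threshold (limma adjusted p = 0.0731). It passed without mutant replicate 1 (-0.65, limma adjusted p = 0.0299) and with array weights (-0.59, limma adjusted p = 0.00726). In these settings 2404 and 4195 of all 22548 probe sets passed. The array weights were lowest for mutant replicate 1, at 0.33, so these settings are not independent. The next in size, cec-4, a chromodomain protein that anchors heterochromatin at the nuclear rim, gave -0.19 (limma adjusted p = 0.580).

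Cohesin and its loaders (8 genes, median -0.06) were led by coh-1, a kleisin gene on the X chromosome, at -0.29 and scc-1, the mitotic kleisin, at -0.20. The SUMO pathway (6 genes, median 0.09), which modifies members of the complex, was led by aos-1, of the SUMO activating enzyme, at 0.23 and uba-2, its partner, at -0.19, and uba-2 was no brighter than the yeast controls. Their limma adjusted p-values were 0.404 for coh-1, 0.700 for scc-1, 0.455 for aos-1 and 0.544 for uba-2. The other probe set of coh-1 gave a larger difference, -0.55 (limma adjusted p = 0.206).

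The X chromosome is where the complex acts, so its 2363 measured genes were set against 14509 autosomal genes. Per array, the median of the X-linked genes minus that of the autosomal genes was -0.03, 0.05 and 0.03 in the mutant, against 0.00, -0.01 and -0.03 in wild type. The groups overlapped, with mutant replicate 1 and wild type replicate 3 lowest and nearly equal. The difference of the group means was 0.03 on the log2 scale (2-sided exact permutation test, p = 0.4, where 0.1 is the smallest that 3 against 3 arrays can give). By gene, the median difference was -0.02 for the X chromosome and -0.05 for the autosomes, which ranged from -0.08 on chromosome I to -0.03 on chromosome V. Of X-linked genes 3.85% rose and 0.677% fell, and of autosomal genes 2.99% rose and 0.634% fell, beside 3.02% and 0.631% of all genes, a contrast between chromosomes that was not tested for these counts. Normalization of the arrays to a common scale leaves only such relative shifts between chromosomes.

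**Figure D4:**
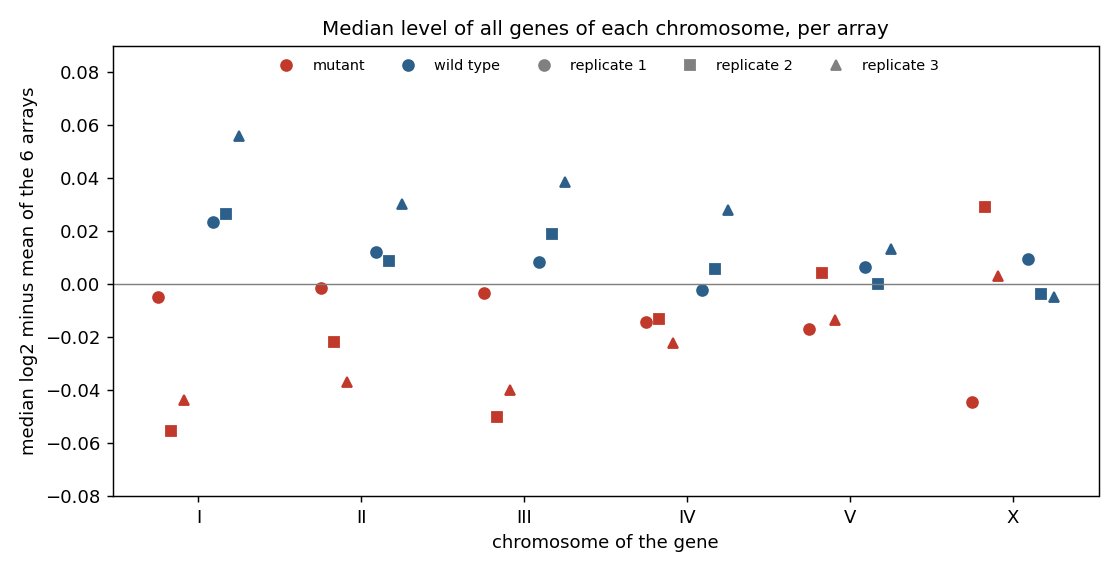
Median log2 intensity of all measured genes of each chromosome on each array, minus the mean of the 6 arrays, with mutant arrays in red left of wild type arrays in blue and 1 symbol per replicate. All medians lie within 0.06 of 0, and on the X chromosome the mutant arrays surround the wild type arrays, from -0.04 on replicate 1 to 0.03 on replicate 2.

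The genes with array profiles most like the mean of the 10 members were sought among 7053 genes with a mean log2 intensity of at least 7 and at least as much spread. R04F11.3, mel-28, mom-4, pigo-1 and ythc-2 were nearest, with Pearson r of 0.990, 0.983, 0.976, 0.975 and 0.974 over the 6 arrays. Their profiles shared high values on mutant replicate 1 and wild type replicate 2. Over 6 arrays that share 1 scaling such values are a description, and 35 of the candidates had r over 0.9.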

How the data were processed

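The authors deposited normalized intensity values on a linear scale for 6 arrays. The submitters' processing notes name Affymetrix Expression Console, and its version, the summarization and the build are not stated. The deposited series matrix holds log2 values equal to log2 of that table within 5.66e-06. Some description fields name insect stages and were not used. Array medians were 119 to 127 in the mutant and 114 to 121 in wild type. The number of arrays limits the precision.

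From there, log2 values without a pseudocount were fitted for 22548 probe sets (77 controls left out). The limma functions lmFit and eBayes (version 3.58.1, R 4.3.3) gave a 2-sided test of genotype alone, adjusted over all probe sets by Benjamini-Hochberg at a threshold of 0.05. Genes and chromosomes came from a table of assembly WBcel235 (16872 of 17430 genes matched), and context genes were read by their brightest probe set. The code was tested on simulated data. Named genes are all members and, per list, up to 4 past the threshold or the 2 largest differences, plus the 5 most similar profiles. Members and lists were chosen with earlier results of these data known. Sequences of the members were not used here. Alternatives were a replicate block, each array left out, other scalings, filters, variance models and a pseudocount of 16.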

Additional observations from a re-analysis of the deposited data

How the results depend on the processing

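The count of 0 called member probe sets was the same in all 15 alternatives, the lowest limma adjusted p of any member being 0.0521, for dpy-27 with array weights. The number of all probe sets called was 785, and 109 to 2404 with 1 array left out (mutant arrays in order 2404, 147 and 109, wild type arrays in order 513, 161 and 252), 470 without the dimmest 50% of probe sets and 4195 with array weights. Higher calls made up 81.4% of these, 70.1% after median centring and 53.1% with array weights. Of the context genes 0 passed, and 0 to 2 with 1 array left out and 2 with array weights (sea-1 and set-1 each time).

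The differences of 6 member probe sets, those of sdc-1, sdc-3 and dpy-27 and the brighter of capg-1, kept their sign in every alternative, but not their size. With 1 array left out the brighter probe sets ranged from -0.36 to -0.056 for sdc-1, 0.17 to 0.44 for sdc-3, -0.33 to -0.16 for dpy-27 and -0.20 to -0.0098 for capg-1, and the dimmer ones from -0.40 to -0.031 for sdc-1 and -0.22 to -0.14 for dpy-27. The other 10 changed sign when 1 array was left out. Brighter probe sets then ranged from -0.22 to 0.78 for sdc-2, -0.10 to 0.055 for dpy-30, -0.057 to 0.23 for mix-1, -0.017 to 0.21 for dpy-26, -0.15 to 0.23 for dpy-28 and -0.17 to 0.088 for dpy-21. The other probe sets ranged from -0.30 to 0.79 for sdc-2, -0.23 to 0.13 for mix-1, -0.11 to 0.023 for dpy-28 and -0.24 to 0.029 for capg-1. With array weights sdc-2 gave -0.046 and -0.11, mix-1 -0.055, dpy-26 -0.054, dpy-28 -0.047 and dpy-21 0.0088. After quantile normalization dpy-30 gave 0.046 and dpy-21 0.021, and after median centring dpy-28 gave -0.0025. The cause of these changes was not tested. The X minus autosome difference stayed above 0, between 0.01 and 0.07, in the 14 alternatives run for it, including 2 chosen after the data were seen. Median centring shifts all genes of an array alike, so it could not change this difference. Leaving out the yolk and late embryo lists took few genes from the medians and gave 0.0309, against 0.0311 in the main setting. The exact permutation test gave p of 0.3 or 0.4 where it was run, and all alternatives reuse the same arrays. The replicate block, array weights and the trend and robust setting were not run for this difference.

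No label states that the replicate numbers pair the samples. Deviations from the group means correlated at 0.20, 0.02 and 0.09 for numbers 1, 2 and 3, and at -0.33 to 0.345 between unlike numbers. With 3 arrays per group these values cannot decide whether the samples were paired. With the replicate block 882 probe sets passed, 0 of them members. Large changes may be compressed by the probe summary.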

Other observations

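The low level of sdc-2 on wild type replicate 1 was set against other genes. The first count takes the value of sdc-2 itself as the cutoff, which makes that count small by construction. Of 8518 genes with a mean log2 intensity of at least 7, 17 including sdc-2 lay at least as far below the mean of the other wild type arrays there, with a difference of -1.63 on the log2 scale for sdc-2, while the median gene differed by -0.03. At least 1 below were 135 genes, and at least 1 above were 18. A comparison chosen after the values were seen ranked 1357 genes with a range of at least 1 by their likeness to sdc-2 over the 6 arrays. klp-12, a kinesin gene, mtk-1, a kinase gene, chd-1, of a chromatin remodeller family, eea-1, of endosomes, and Y46H3C.5 were nearest, with Pearson r of 0.991, 0.991, 0.991, 0.989 and 0.986. On wild type replicate 1 they differed from the mean of the other wild type arrays by between -0.97 for mtk-1 and -2.33 for Y46H3C.5. Over 6 arrays of which 1 stands far out, r is set largely by that array.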
